A study of Mus musculus with 26 samples.

Results

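RNA polymerase II (Pol II), the enzyme that transcribes protein-coding genes, was compared over mouse gene bodies between the liver 36 h after partial hepatectomy and the liver tissue removed at the operation, the 0 h sample. Genes were described where the signal per base pair (bp), rescaled between libraries, was above 0.5 in either of these libraries. This took in 4692 genes, 22.4% of 20933 measured genes among 31804 gene entries. Of the 4692, 2674 lay above 0.5 in both libraries, 948 at 0 h alone and 1070 at 36 h alone. Just inside the limit were Wdr45 (0.50003 at 0 h) and Ftsj1 (0.50005 at 0 h), and just outside it were Rnpep (0.499 at 0 h) and Scgb3a1 (0.4997 at 36 h).

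ChIP-seq, in which an antibody pulls down a protein with the DNA it sits on and that DNA is sequenced, was made from total liver of male wild-type C57BL6/J mice aged 7 weeks. At the operation 3 of 5 lobes were taken out, and the lobes taken out stand for 0 h, so both groups share strain, sex, age and the absence of any drug or transgene. Livers of 5 mice were collected for each time, the labels do not say whether they were pooled, and each time has 1 Pol II library. Neither a sham operation nor the time of day is named in the labels, so time after surgery, time of day and library cannot be told apart.

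Adult hepatocytes, the main cells of the liver, are mostly quiescent. When tissue is lost, the remaining hepatocytes enter the cell cycle, and in mice a first wave of DNA replication is usually under way by about this time, while the organ still has to secrete plasma proteins and run metabolism. Pol II lying over the body of a gene reports transcription in progress rather than stored mRNA, and the intervals measured here leave out the first 500 bp, where Pol II can pause. The liver also has a strong circadian clock, in which activators bound to E-boxes switch on their own repressors.

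Values below are the signal per bp after rescaling, on a linear scale, and changes are 36 h minus 0 h on the log2(signal + 0.5) scale, with values below 0 set to 0. Adding 0.5 understates changes of genes with low signal, and where a library lies at or below 0 the change is no fold. Of the measured genes, 59.1% were below 0 at 0 h and 55.5% at 36 h, since the deposited signal is signed. At 0 h 3622 measured genes exceeded 0.5 and 1969 lay below -0.5, and at 36 h these were 3744 and 1745. Beyond 2 the numbers were 1416 above and 123 below at 0 h, and 1410 and 112 at 36 h, so values of 2 or more had few counterparts of the opposite sign and values near 0.5 had many. Sequencing depth is unknown, since the files hold no read counts. Among the other 6 Pol II libraries, which enter only the rescaling and the time courses, the 3 h signal summed to below 0 and the 168 h library was rescaled the most. Rescaling moved the change by -0.01.

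At 36 h 894 genes were higher by 1 or more, which is 19.1% of the genes described, and 887 were lower by as much, which is 18.9%. With 1 library per time no test could be made, so a change of 1 is a size and not a test, and no spread between replicates stands behind any value here. The other 2911 genes (62.0%) lay between. The median change was -0.02, the middle 50 percent of genes ran from -0.73 to 0.71, and the 5th and 95th percentiles were -1.74 and 1.82. Counts of gene groups are descriptions to be set against these shares, and a member above 0.5 in 1 library alone had its direction fixed by that choice.

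Among the 136 genes with a signal above 20 in either library, more were lower (44, 32.4%) than higher (25, 18.4%), and their median change was -0.32. Among the 2862 genes between 0.5 and 2 the shares were 18.4% lower and 19.9% higher. Short genes were called more often than long ones. With a measured body of 0.5 to 2 kb, 35.4% of 749 genes were lower and 26.2% higher, whereas with 50 kb or more 5.08% of 197 were lower and 14.7% higher. The median measured body was 3699 bp for lower genes, 5132 bp for higher genes and 9489 bp for those between. Both the level and the length thus move with the calls, and their part in them was not tested.

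**Figure D1:**
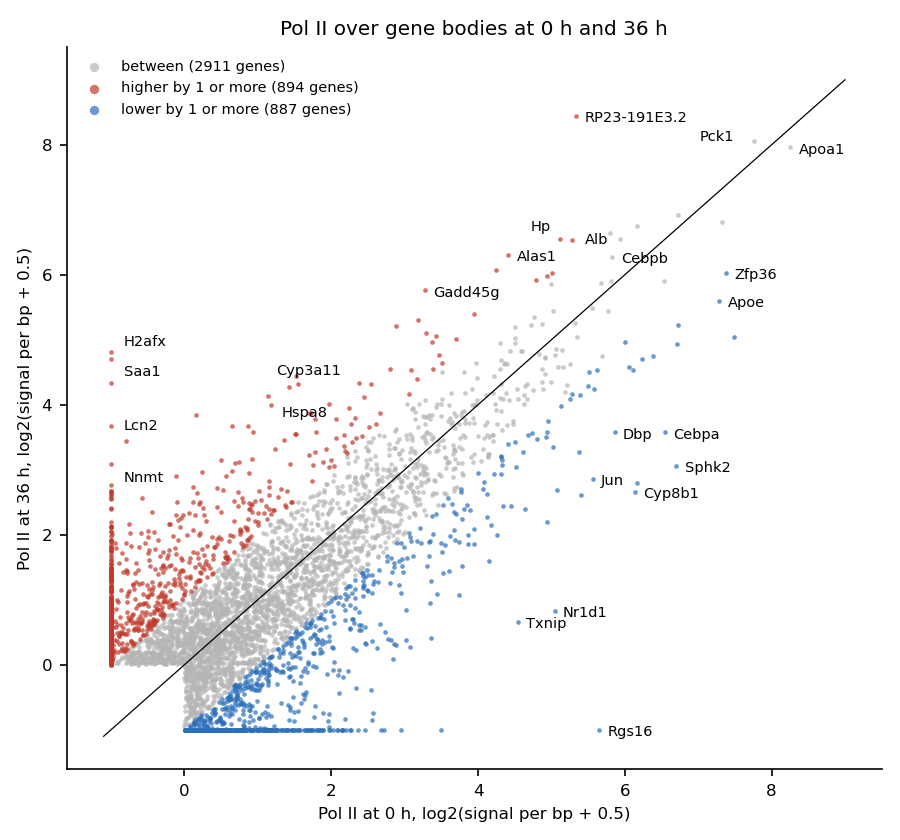
Pol II signal of 4692 described genes, 0 h on the x axis and 36 h on the y axis, both as log2(signal per bp + 0.5). Points stand for genes, coloured by a change of 1 or more in either direction, the line marks equal signal, and the rows of points at -1 on either axis are genes at or below 0 in that library. The 894 higher and 887 lower genes lie above and below the line, and Rgs16 lies farthest below it.

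Many calls followed the position of the 0 h library among all 8 rather than that of the 36 h library. Of 152 lower genes with a signal of 5 or more at 0 h or 36 h, 118 had a 0 h value above all 6 libraries of the other times, and for 122 the 36 h value lay within the range of those 6. Of 119 higher genes of that level, 71 had a 0 h value below the other 6, and for 85 the 36 h value lay within their range. In 31 higher genes the 36 h value was above all other times, and in 21 lower genes it was below them. Over all 4692 genes, the highest of the 8 values was at 0 h in 1400 (29.8%) and at 36 h in 608 (12.96%). The calls use the 0 h value itself, which favours an extreme 0 h value among called genes. Of 467 genes of that level between the calls, 118 had a 0 h value above the other 6 and 43 one below. Among 1025 genes of 5 or more in any library, 3 h was highest in 407 and 0 h in 225, while 168 h was lowest in 338 and 0 h in 187. For most called genes of 5 or more at 0 h or 36 h, then, the 36 h value was one that other times after surgery also reached.

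Genes of DNA replication were an exception to this. Of 49 measured genes of replication and the G1/S step, 35 had the highest of their 8 values at 36 h, and of 49 measured genes of G2/M and mitosis 28 did, against 9.25% of all measured genes. Signals were low: 20 replication genes and 8 mitosis genes were above 0.5 in either library, 14 and 5 of them at 36 h alone, which fixes their direction, and 37 and 35 of the 49 lay at or below 0 at 0 h against 6 and 16 at 36 h. Of the 20, 12 were higher and 1 was lower (Gins4), against 19.1% and 18.9% of all described genes. Their median change was 1.11, or 0.51 over all 49. Of the 8 mitosis genes, 4 were higher and 1 was lower (Pttg1, the securin that holds back sister chromatid separation), with a median change of 0.91, or 0.12 over all 49.

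Rrm2, a subunit of the ribonucleotide reductase that makes DNA precursors, gave 0.106 at 0, -0.537 at 3, -0.0790 at 8, -0.333 at 16, -0.303 at 24, 3.05 at 36, 0.216 at 48 and 0.0224 at 168 h. Its change from 0 h was 2.55, and every other library lay below the one of 36 h. The licensing factor Cdt1, which loads the replicative helicase, gave -0.316 at 0, -0.796 at 3, -1.58 at 8, -0.788 at 16, -2.02 at 24, 2.06 at 36, -1.16 at 48 and -3.49 at 168 h. Only the 36 h library stood above 0 for Cdt1, and the change was 2.35. Among genes of the helicase itself, Mcm2 was -0.160 and 0.633, Mcm3 -0.415 and 0.650, Mcm5 -0.620 and 0.639, and Mcm6 -0.198 and 0.512, at 0 h and 36 h. All 4 lay below 0 in the resected tissue and at 0.65 or below at 36 h, a level at which many genes lie on the other side of 0. Pcna, the sliding clamp of the polymerases, was -0.142 and 1.29, and Uhrf1, which brings the maintenance methyltransferase to new DNA, -0.697 and 1.31. Mcm10, a helicase activator, was lower, at 2.89 and 1.2004, just short of a change of -1.

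Hjurp, the chaperone that places the centromeric histone, gave 0.444 at 0, -1.29 at 3, 0.589 at 8, 1.37 at 16, 0.787 at 24, 3.29 at 36, 0.862 at 48 and 1.72 at 168 h. With a change of 2.005 it had the highest 36 h signal of the mitosis group. Cdk1, named Cdc2a in the files and the kinase that drives entry into mitosis, was 0.00457 at 0 h and 1.26 at 36 h. Ube2c, a ubiquitin-conjugating enzyme of the anaphase-promoting complex, was -0.502 and 1.22, and the spindle kinase gene Aurka 0.169 and 0.954. The other described members were Cdc20 (0.689 and 1.43), Kif20a (0.223 and 0.519) and Cks2 (1.82 and 0.940), and the other 41 measured members were at or below 0.5 in both libraries.

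Histone genes, core and linker together, needed to package new DNA, leaned the same way, in a group chosen after its values were seen. Of 80 entries with histone names 17 had a usable interval of 500 bp or more, and 11 of these were above 0.5 in either library. Of the 11, 8 were higher and 0 were lower, against 19.1% and 18.9% of all described genes, with a median change of 2.04. In 7 the highest value of all 8 libraries was at 36 h, against 12.96% of all described genes. Among the higher genes, Hist2h2be, Hist1h2bc, H2afz, Hist1h3d, Hist1h2ai and H2afx were above 0.5 at 36 h alone, which fixes their direction. H2afx (H2ax), which encodes the histone variant phosphorylated at DNA breaks, had the largest upward difference of the genes with a signal of 5 or more. It lies in mm9 on chromosome 9 and gave -0.425 at 0, 3.96 at 3, 6.24 at 8, 4.59 at 16, 2.22 at 24, 27.5 at 36, 11.1 at 48 and -2.55 at 168 h, a change of 5.81. The 36 h value exceeded the next, at 48 h, by 1.26 on the log2 scale. Hist1h2ai gave 0.0734 at 0, -0.0991 at 3, 4.36 at 8, 1.05 at 16, 1.70 at 24, 10.3 at 36, 7.27 at 48 and 5.25 at 168 h, and the canonical H3 gene Hist1h3d gave -1.44 at 0, -1.73 at 3, 0.654 at 8, -0.834 at 16, 0.368 at 24, 4.77 at 36, 3.28 at 48 and -0.581 at 168 h. Hist1h1c, which encodes a linker histone, had a high signal throughout, 61.0 at 0 h and 93.1, its highest, at 36 h. H2afz, another variant gene, was -0.229 and 2.54, while H3f3b, a variant H3 gene made outside the cell cycle, was 3.76 and 3.27, a change of -0.18. Hist1 genes are near-identical copies in clusters, and how reads were shared among them is not stated.

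**Figure D2:**
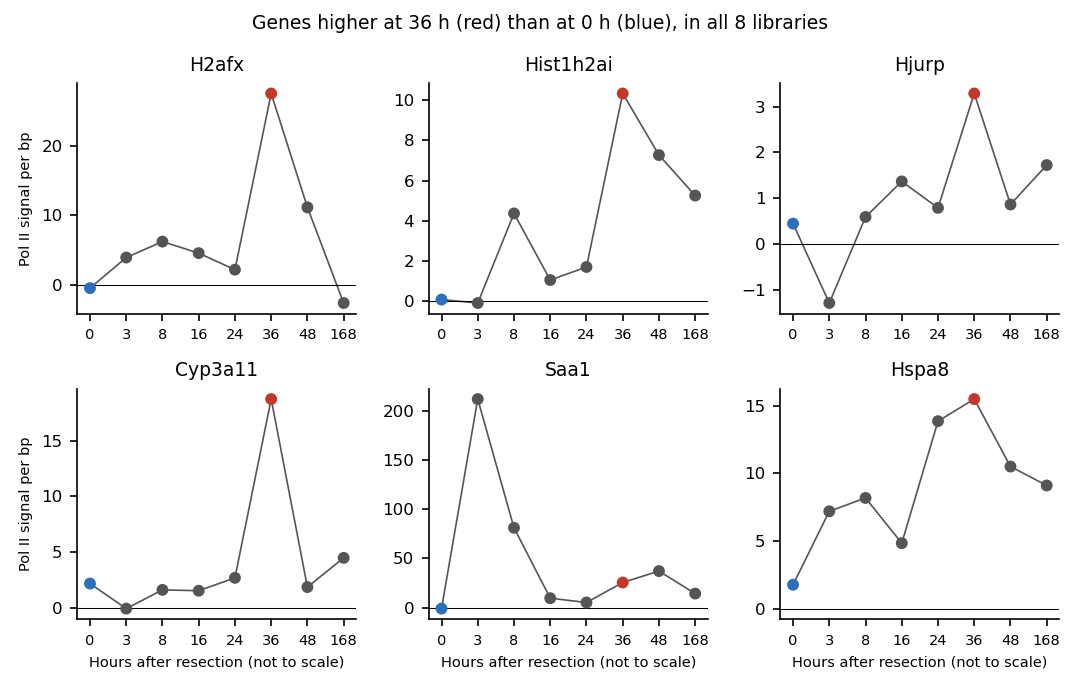
Pol II signal per bp in all 8 libraries (x axis, hours after resection, evenly spaced; y axis, linear, a separate scale for each gene) for H2afx, Hist1h2ai, Hjurp, Cyp3a11, Saa1 and Hspa8. Points are single libraries, 0 h in blue and 36 h in red, and the horizontal line marks 0. The 36 h point is the highest of 8 for all but Saa1, whose highest point is at 3 h (212).

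Promoters of these groups held the short motifs known from cell cycle control, in the RefSeq promoter table of the build GRCm38.p6 (250 bases before to 50 after a start). The E2F motif (TTTCCCGC or TTTGGCGC, both strands) was in 13 of 39 replication genes with a promoter (33.3%), against 3.24% of 3491 described genes with one and 1.56% of all 32851 promoters. The cell cycle homology region (CHR, TTTGAA, both strands) was in 29 of 42 mitosis genes (69.0%), against 13.9% of described genes and 17.9% of all promoters. A CCAAT motif (CCAAT, both strands) was in 32 of those 42 (76.2%), against 43.8% of described genes and 37.4% of all promoters. These lists were built from gene function, but with earlier results of these data known, and a match is a description and not a site. The 4 promoters shown are of called genes with an exact match, in capitals: E2F in Cdt1 (chr8:122567765-122568064, + strand) and Mcm3 (chr1:20820263-20820562, - strand), CHR and CCAAT in Cdk1 (chr10:69352863-69353162, - strand) and Ube2c (chr2:164769679-164769978, + strand).

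Cdt1: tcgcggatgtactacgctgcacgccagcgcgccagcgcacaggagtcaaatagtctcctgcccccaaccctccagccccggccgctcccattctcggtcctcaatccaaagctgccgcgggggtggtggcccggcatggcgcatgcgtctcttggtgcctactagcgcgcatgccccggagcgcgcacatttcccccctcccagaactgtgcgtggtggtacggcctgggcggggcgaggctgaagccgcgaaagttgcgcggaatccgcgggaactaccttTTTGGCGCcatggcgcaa
Mcm3: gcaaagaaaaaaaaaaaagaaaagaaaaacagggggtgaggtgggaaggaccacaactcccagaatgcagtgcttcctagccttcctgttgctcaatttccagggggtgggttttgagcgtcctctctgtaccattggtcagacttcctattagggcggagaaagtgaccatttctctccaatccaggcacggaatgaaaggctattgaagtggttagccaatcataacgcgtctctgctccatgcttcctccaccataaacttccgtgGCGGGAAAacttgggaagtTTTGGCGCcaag
Cdk1: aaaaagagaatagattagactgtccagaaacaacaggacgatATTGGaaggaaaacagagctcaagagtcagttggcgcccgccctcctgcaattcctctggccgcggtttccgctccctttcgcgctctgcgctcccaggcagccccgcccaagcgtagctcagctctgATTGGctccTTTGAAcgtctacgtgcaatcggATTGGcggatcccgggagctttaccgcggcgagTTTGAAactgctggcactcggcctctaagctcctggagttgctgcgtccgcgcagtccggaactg
Ube2c: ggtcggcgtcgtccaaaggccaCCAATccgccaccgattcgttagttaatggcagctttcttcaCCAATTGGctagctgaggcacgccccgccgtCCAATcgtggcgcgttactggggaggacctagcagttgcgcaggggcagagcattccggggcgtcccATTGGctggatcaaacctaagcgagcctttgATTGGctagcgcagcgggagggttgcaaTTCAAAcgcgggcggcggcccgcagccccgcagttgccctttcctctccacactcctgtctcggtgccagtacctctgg

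In Cdt1 the match begins 33 bases after the start, and in Mcm3 matches begin 20 and 39 bases after it. The CHR of Cdk1 that is nearest the start begins at -15, and that of Ube2c at -29, each with several CCAAT motifs upstream. Among the 7 described mitosis genes with a promoter, the 5 with a CHR (Cdc2a, Cdc20, Aurka, Ube2c, Hjurp) had a median change of 1.78, with 4 higher, and the 2 without had -1.06, with 0 higher. Those 4 (Cdc2a, Aurka, Ube2c and Hjurp) were above 0.5 at 36 h alone, which fixes their direction, so this split says nothing about the motif. Among 17 described replication genes with a promoter, the 7 with the E2F motif had a median change of 1.16 and the 10 without 1.08, with 5 higher in each.

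Of 13 described genes of G1 cyclins and inhibitors 4 were higher and 3 lower, near the 19.1% and 18.9% of all described genes. Gadd45g, a stress gene that restrains the cell cycle, had the largest signal of them at 36 h. It gave 9.22 at 0, 701 at 3, 173 at 8, 99.0 at 16, 74.8 at 24, 53.7 at 36, 133 at 48 and 3.81 at 168 h, a change of 2.48, and its 3 h value was the highest. Ccnd1, the D cyclin that drives liver cells out of quiescence, was 3.28 and 3.11, a change of -0.06, while Ccnd3 was 1.26 and 3.83, a change of 1.30. Myc was 1.499 and 3.93, and Mdm2, which degrades p53, 0.554 and 2.03. Of the brakes on the cycle, Btg1 was 5.36 and 0.790 and Cdkn1b, which encodes p27, 1.68 and 0.141, whereas Cdkn1a, which encodes p21, was 1.84 and 3.8005. For Btg1 the 36 h value was the lowest of all 8.

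The acute phase group, proteins that the liver secretes during injury and inflammation, had the highest median of the groups in the lists. Of 27 measured genes 24 were described, 20 of these were higher and 0 lower, and the median change was 1.76, or 1.66 over all 27, against -0.02 over all described genes. Of the 24, 7 passed 0.5 at 36 h alone. None had its highest value at 36 h. Saa1, which encodes the inducible serum amyloid A, gave -0.927 at 0, 212 at 3, 81.1 at 8, 9.66 at 16, 5.25 at 24, 25.6 at 36, 37.2 at 48 and 14.3 at 168 h. The change at 36 h was 5.71, from a library below 0, but the 3 h and 8 h values were several times larger. Its neighbour Saa2 gave -0.359 and 19.7, and reads from these near-identical copies may have been split between them. Lcn2, which binds bacterial iron carriers, gave -1.26 at 0, 326 at 3, 43.8 at 8, 29.5 at 16, 10.01 at 24, 12.3 at 36, 28.0 at 48 and 4.86 at 168 h, a change of 4.68.

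Hpx, the haem carrier of plasma, was 6.86 at 0 h and 36.7 at 36 h, a change of 2.34. Socs3, the feedback inhibitor of interleukin 6 signalling, was 2.38 and 21.3, a change of 2.92. The 3 fibrinogen genes, whose products form the clot, were close to each other, with Fga at 8.59 and 39.1, Fgb at 10.2 and 32.8 and Fgg at 9.28 and 33.8. Haptoglobin (Hp) reached one of the 10 highest signals of the 36 h library, 93.0 against 34.1 at 0 h. Members of 3 gene clusters were higher side by side: Saa4, Saa1 and Saa2 on chromosome 7, Serpina3k, Serpina3m and Serpina3n on chromosome 12, and Itih4, Itih3 and Itih1 on chromosome 14. The 1 member with a change below 0, Hamp1, encodes the iron hormone hepcidin and was 36.8 and 19.2, a change of -0.92. Other members short of a change of 1 were Orm3 (0.13), Il1r1 (0.65) and Stat3 (0.80).

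A relaxed C/EBP motif (TTGCNNAA, both strands) was in 12 of 21 acute phase genes with a promoter (57.1%), against 10.9% of described genes and 10.8% of all promoters. The 4 printed here hold one, in capitals, and all are genes with a change above 1. They lie at chr7:46742931-46743230, - strand (Saa1), chr2:32387690-32387989, - strand (Lcn2), chr7:105600067-105600366, - strand (Hpx) and chr3:83025903-83026202, + strand (Fga) in GRCm38.p6.

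Saa1: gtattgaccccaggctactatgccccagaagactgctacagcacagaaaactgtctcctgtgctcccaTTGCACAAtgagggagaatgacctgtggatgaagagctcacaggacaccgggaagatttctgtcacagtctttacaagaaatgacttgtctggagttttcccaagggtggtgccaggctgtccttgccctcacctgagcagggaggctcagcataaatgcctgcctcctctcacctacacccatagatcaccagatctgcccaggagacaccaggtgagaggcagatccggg
Lcn2: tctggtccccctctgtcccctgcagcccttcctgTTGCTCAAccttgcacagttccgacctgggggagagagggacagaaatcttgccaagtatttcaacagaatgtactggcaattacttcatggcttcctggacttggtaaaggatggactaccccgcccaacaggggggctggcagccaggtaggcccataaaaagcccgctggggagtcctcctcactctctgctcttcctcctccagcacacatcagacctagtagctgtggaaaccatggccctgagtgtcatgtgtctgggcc
Hpx: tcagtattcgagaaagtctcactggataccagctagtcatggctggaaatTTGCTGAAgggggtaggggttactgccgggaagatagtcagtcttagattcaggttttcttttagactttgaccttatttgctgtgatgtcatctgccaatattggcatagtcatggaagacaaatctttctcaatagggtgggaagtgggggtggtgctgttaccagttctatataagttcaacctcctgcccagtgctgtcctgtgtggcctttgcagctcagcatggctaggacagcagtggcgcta
Fga: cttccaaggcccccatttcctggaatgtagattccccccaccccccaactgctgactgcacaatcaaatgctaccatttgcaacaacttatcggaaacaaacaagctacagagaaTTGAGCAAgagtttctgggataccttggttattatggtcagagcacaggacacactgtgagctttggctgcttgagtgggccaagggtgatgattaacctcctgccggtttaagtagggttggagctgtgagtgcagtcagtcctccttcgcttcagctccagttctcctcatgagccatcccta

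Counted from the start, the match begins at -182 in Saa1, -216 in Lcn2, -200 in Hpx and -135 in Fga. C/EBPalpha and C/EBPbeta, hepatocyte transcription factors, had deposited regions close to the same starts in mm9, whose starts can differ from those of RefSeq. At Saa1 the C/EBPalpha regions were centred at -215 bp (0 h) and -134 bp (36 h), and those of C/EBPbeta at -230 and -275 bp. At Lcn2 the C/EBPalpha regions were centred at -181 and -185 bp, and those of C/EBPbeta at -159 and -224 bp. Regions of this kind were thus present at both times, also at 0 h, when both genes lay below 0. Over the 24 described acute phase genes, 19 had a C/EBPalpha region within 1 kb at 0 h and 22 at 36 h, and for C/EBPbeta 22 and 23, in the full lists, against 27.0%, 31.6%, 34.0% and 45.3% of all described genes. The 19 with a promoter sequence had a median change of 2.12 where the motif was present (11 genes, 9 higher) and 1.63 where it was not (8 genes, 6 higher).

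Complement genes leaned the same way, with 6 of 13 described genes higher and 0 lower, against 19.1% and 18.9% of all described genes, and a median change of 0.59. Of the 13, 4 passed 0.5 at 36 h alone. C3, the central protein of the cascade, was 9.90 and 30.8, a change of 1.59, and the lectin gene Mbl1 was 1.23 and 5.40. Coagulation genes did not: 2 of 15 were higher and 3 lower, with F11 at 2.96 and 0.746 and F7 at 2.24 and 0.834. Of interferon and NF-kB targets 3 of 11 were higher and 1 lower, the chemokine gene Cxcl10 at 3.58 and 0.696. Cxcl1, a neutrophil-attracting chemokine gene, had a change of only 0.34 but gave 2.82 at 0, 14.9 at 3, 29.1 at 8, 6.94 at 16, 8.88 at 24, 3.70 at 36, 27.7 at 48 and 18.2 at 168 h, so the 36 h value lay below those of the neighbouring times 24 h and 48 h.

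Genes of the circadian clock made up part of the opposite side. Of 12 measured repressors and proline and acidic amino acid-rich (PAR) bZIP factors 10 were described. Of these 4 were lower and 0 higher, against 18.9% and 19.1% of all described genes. The median change was -0.66, or -0.54 over all 12. Of the 10, 2 passed 0.5 at 0 h alone, which fixes their direction: Hlf, 1 of the 4 lower genes, and Nr1d2. Nr1d1 encodes REV-ERBalpha, which represses the clock activator gene Arntl. It lies on chromosome 11 and gave 32.5 at 0, 5.11 at 3, 12.5 at 8, 0.0704 at 16, 13.5 at 24, 1.28 at 36, 16.8 at 48 and 18.7 at 168 h. The change was -4.22, and the 16 h and 36 h libraries were at 1.28 or below while 24 h and 48 h were at 13.5 or above. Dbp, a PAR bZIP factor and classic clock output, gave 57.6 at 0, 14.2 at 3, 23.4 at 8, 11.3 at 16, 16.2 at 24, 11.4 at 36, 24.5 at 48 and 30.8 at 168 h, a change of -2.29. Tef was 3.83 and 1.55 and Hlf 0.932 and 0.196, both lower by just over 1. The period genes were closer to their 0 h level, with Per1 at 4.39 and 3.58 and Per2 at 4.52 and 2.28. Bhlhe40 (Bhlhb2 in the files) was 13.3 and 9.45, Cry2 2.17 and 1.64, Nr1d2 0.627 and 0.413, and Ciart (Gm129) 1.01 and 1.30. The other members of this list, Per3 and Bhlhe41, and Cry1, Arntl, Clock, Npas2 and Rora from the list of activators and their loop, were at or below 0.5 in both libraries and were not described.

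Nfil3, a repressor of D-box genes, was 3.66 and 2.46. Since the hour of each collection is unknown here, a time after surgery and a phase of the clock cannot be told apart.

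Sphk2, a sphingosine kinase gene, and Car11 lie next to Dbp on chromosome 7, and all 3 were lower. Sphk2 gave 104 at 0, 13.4 at 3, 26.3 at 8, 6.35 at 16, 21.6 at 24, 7.83 at 36, 25.4 at 48 and 47.4 at 168 h, a change of -3.65. Like Dbp and Nr1d1 it had lows at 16 h and 36 h. Genes outside the clock lists, Cebpa and Egfr among them, were likewise lower at 16 h and 36 h than at 8, 24 and 48 h. Such lows were thus not particular to clock genes, and how common they were was not counted. Only 8 genes of a signal of 5 or more in any library lay below both 24 h and 48 h by 1 or more at 36 h: Nr1d1, Sphk2, Cxcl1, Ppp1r3c, Armet (Manf), Sepp1 (Selenop), BC003940 and Fn1. In the opposite direction there were 34.

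The E-box CACGTG was in 4 of 10 clock repressor genes with a promoter (40%), against 11.8% of described genes and 7.15% of all promoters. Of the 4 lower genes Tef was the 1 in which it was found. RefSeq gives 2 Tef promoters, and both hold it. The first (chr15:81802423-81802722, + strand, GRCm38.p6) is shown, with the E-box in capitals.

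Tef: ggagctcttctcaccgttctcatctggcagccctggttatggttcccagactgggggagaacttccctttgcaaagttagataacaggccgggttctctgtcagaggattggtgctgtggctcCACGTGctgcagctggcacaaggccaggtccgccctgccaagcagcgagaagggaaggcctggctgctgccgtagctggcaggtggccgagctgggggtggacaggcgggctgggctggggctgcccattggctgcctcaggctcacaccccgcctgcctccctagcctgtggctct

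That E-box begins at -127 from the start, and that of the second Tef promoter (chr15:81811164-81811463, + strand) at -138 from its own start. Which of these starts belongs to the measured body was not examined. The 3 described repressor genes with an E-box had a median change of -0.26, and the 5 without had -1.04. These letters were not in the windows of Nr1d1 and Dbp, which says only that they are not within these 300 bases.

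**Figure D3:**
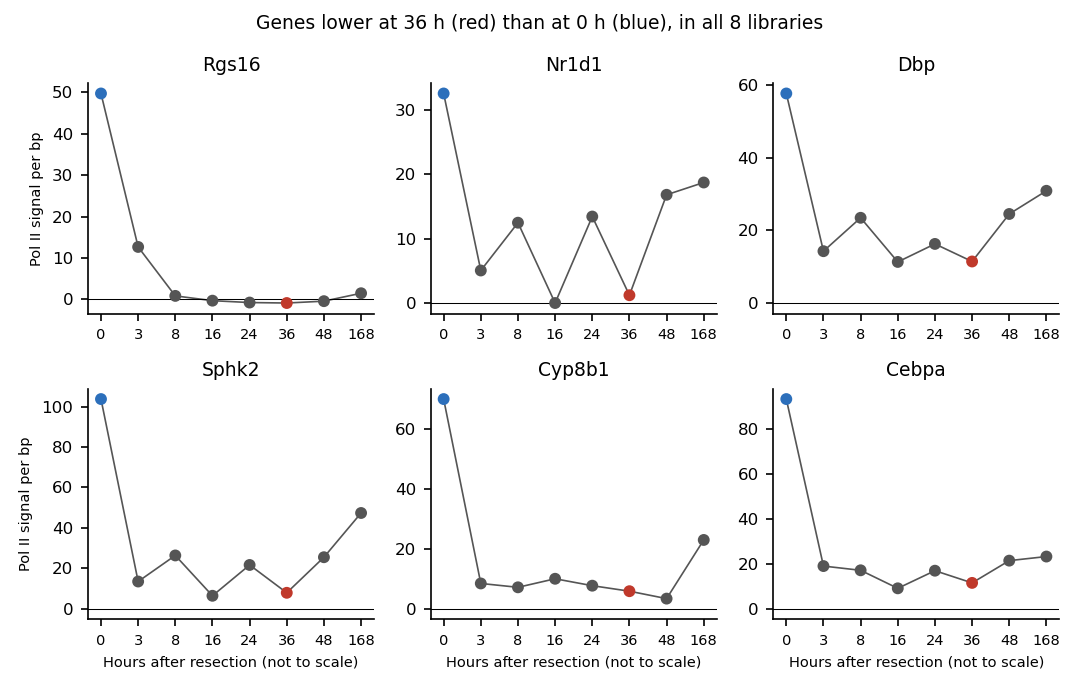
Pol II signal per bp in all 8 libraries (x axis, hours after resection, evenly spaced; y axis, linear, a separate scale for each gene) for Rgs16, Nr1d1, Dbp, Sphk2, Cyp8b1 and Cebpa. Points are single libraries, 0 h in blue and 36 h in red, and the horizontal line marks 0. The 0 h point is the highest of 8 in each panel, and Nr1d1, Dbp, Sphk2 and Cebpa have lows at 16 h and 36 h.

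The largest difference in the downward direction belonged to Rgs16, a regulator that shuts off G protein signals. It lies on chromosome 1 and gave 49.7 at 0, 12.7 at 3, 0.869 at 8, -0.283 at 16, -0.737 at 24, -0.852 at 36, -0.403 at 48 and 1.51 at 168 h. From 8 h on every library was at 1.51 or below, so the 36 h value was not set apart from its neighbours. Txnip, an inhibitor of thioredoxin that responds to glucose, gave 22.8 at 0, 26.4 at 3, 11.2 at 8, 2.94 at 16, 2.24 at 24, 1.08 at 36, 2.07 at 48 and 7.72 at 168 h, and here 36 h was the lowest of 8. Foxq1, a forkhead factor gene, was 7.23 and -0.0475, and Zfp36l2, which speeds mRNA decay, 9.78 and 0.836. Depp1 (8430408G22Rik), a gene of the fasting response, was 71.2 and 6.43, in a body that overlaps Rassf4. Hcrt, Olfr460, Ypel3, Nt5c, Olfml3 and the unnamed AL844480.29-1 complete the 15 largest. These 6 have measured bodies of 560 to 1571 bp, 0 h signals of 5.03 to 10.8 and 36 h values from -1.60 to 0.10, and AL844480.29-1 lies within Klhdc7a. Hcrt and Olfr460, a neuropeptide and an odorant receptor gene, were above 1 in the 0 h library alone.

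Immediate early genes, which respond to growth and stress signals within minutes, were lower as a group at 36 h. Of 17 described genes 11 were lower and 2 higher, against 18.9% and 19.1% of all described genes. The median change was -1.26, or -0.86 over all 23 measured. Of the 17, 3 passed the limit on signal at 0 h alone and 1 at 36 h alone, which fixes their direction. Jun, a subunit of the AP-1 factor, gave 46.8 at 0, 37.6 at 3, 7.99 at 8, 6.09 at 16, -0.566 at 24, 6.79 at 36, 11.1 at 48 and -3.16 at 168 h, a change of -2.70. The 36 h value was close to those of 8 h and 16 h and well under those of 0 h and 3 h. Zfp36, which encodes the mRNA decay factor tristetraprolin, gave 166 and 65.0 and was among the 10 highest genes of the 0 h library. Junb was 74.6 and 25.5, Jund 40.9 and 9.22, Klf10 10.3 and 1.64, and Maff 3.40 and 0.0927. Dusp1, which switches off MAP kinases, was 24.9 and 19.4, a change of only -0.35. The 2 higher members were Fos, at -0.688 and 0.630, and Fosl2, at 0.809 and 2.17. Fos was the member that passed the limit at 36 h alone, so its direction was fixed by that choice.

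Egr1, a zinc finger factor of this group whose own binding was mapped at 36 h, gave 19.6 at 0, 43.4 at 3, 12.7 at 8, 5.67 at 16, 3.32 at 24, 7.91 at 36, 13.4 at 48 and 5.24 at 168 h. The change was -1.26, and the 36 h value lay within the range of the later times. The 0 h tissue was thus higher than all libraries but that of 3 h for Egr1. Of the 17 genes 6 had their highest value at 0 h, near the 29.8% of all described genes.

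The genes of the C/EBP factors parted. Cebpa, which encodes the factor that holds hepatocytes in their differentiated and resting state, gave 93.2 at 0, 18.9 at 3, 17.0 at 8, 9.02 at 16, 16.9 at 24, 11.4 at 36, 21.3 at 48 and 23.2 at 168 h. All 7 libraries after surgery were between 9.02 and 23.2, and the change at 36 h was -2.97. Cebpb, which encodes the related factor induced by injury, gave 56.5 at 0, 381 at 3, 66.2 at 8, 83.8 at 16, 14.2 at 24, 77.2 at 36, 40.5 at 48 and 13.9 at 168 h, a change of 0.45. Its 36 h signal lay above both 24 h and 48 h. In the lists of both factors and both times a region was centred between -214 and -164 bp from the Cebpa start.

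Across 32 described genes of liver transcription factors 3 were higher and 6 lower, against 19.1% and 18.9% of all described genes. The median change was 0.02. Nr1i3, the xenobiotic receptor CAR, was 22.5 and 7.74, and Ppara, the receptor that drives fatty acid oxidation, 5.18 and 1.69. Atf5 was 0.522 and 3.50, the largest in the upward direction. The factors that define hepatocytes were close to their 0 h level, with Hnf4a at 9.19 and 10.4, Foxa3 at 5.11 and 7.08 and Onecut1 at 4.95 and 5.66. In the group of growth factor pathways, Egfr, the receptor of epidermal growth factor, was 1.401 and 8.52 (change 2.25), and Hes1, a Notch target, 21.4 and 4.91 (change -2.01), in a group of 12 with 2 higher and 3 lower. Smad7, an inhibitor of TGF-beta signals, was 3.62 and 1.06. Of 9 described genes of the growth hormone axis, Igf1 was 0.743 and 3.05 and Igfbp2 2.44 and 0.648.

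Metabolic groups differed in direction. Genes of fatty acid oxidation and ketone body synthesis, which run in fasting, were lower: 10 of 25 described genes were lower, against 18.9% of all described genes, and 0 higher. The median change was -0.63, or -0.21 over all 38 measured, and 6 of the 25 passed 0.5 at 0 h alone. Acaa1b, a peroxisomal thiolase, was 30.4 and 4.06, a change of -2.76. Fabp1, the fatty acid carrier of liver, was 68.8 and 22.7, and Bdh1, which makes the ketone body beta-hydroxybutyrate, 1.76 and -0.216. Cpt1a, which lets fatty acids into mitochondria, was 4.81 and 2.90, a change of -0.64. For 10 of the 25 the 0 h library was the highest of 8, against 29.8% of all described genes.

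Cholesterol synthesis lay on the other side, with 7 of 21 described genes higher and 0 lower, against 19.1% and 18.9% of all described genes. The median change was 0.89, or 0.64 over all 25 measured. Those 21 include 7 that passed 0.5 at 36 h alone, which fixes their direction. Fdps, which makes farnesyl pyrophosphate, was 1.73 and 5.61, a change of 1.46. Insig2, which holds back the activation of sterol regulatory factors, was 0.519 and 2.04, a change of 1.32, while its relative Insig1 was 14.6 and 15.4, a change of 0.08. In 5 of the 21, 36 h was the highest of 8, against 12.96% of all described genes. In fatty acid synthesis 4 of 26 were higher and 0 lower. Scd1, which desaturates fatty acids, gave 0.0180 at 0, 6.72 at 3, 0.140 at 8, -0.175 at 16, -0.0184 at 24, 3.15 at 36, 0.105 at 48 and 0.627 at 168 h, so its signal was above 1 at 3 h and 36 h alone. Elovl3, a clock-linked elongase, was 0.908 and 8.34, and the next gene, Pitx3, one of the 15 largest in the upward direction, was -0.452 and 5.69. The bodies of Elovl3 and Pitx3 overlap at their ends, and ChIP-seq gives no strand, so their signals may be shared.

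Of 20 described genes of bile acid synthesis and transport 3 were higher and 2 lower, against 19.1% and 18.9% of all described genes. The lower ones had large signals at 0 h: Cyp8b1, the enzyme that makes cholic acid, gave 70.1 at 0, 8.41 at 3, 7.12 at 8, 9.98 at 16, 7.66 at 24, 5.82 at 36, 3.34 at 48 and 23.0 at 168 h, a change of -3.48. Nr0b2, which encodes the repressor SHP, was 24.5 and 4.75, a change of -2.25. Cyp7a1, the rate-limiting enzyme of bile acid synthesis, was 5.64 and 5.80, a change of 0.04.

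Cytochrome P450 genes of families 1 to 3, which oxidise drugs and steroids, split: 8 of 19 described genes were lower and 5 higher. Over all described genes 18.9% were lower and 19.1% higher. The median change of the group was -0.84, or 0 over all 36 measured. Of the 19, 2 passed the limit on signal at 0 h alone, Cyp2a5 among them, and 4 at 36 h alone, which fixes their direction. Cyp2e1, an alcohol-oxidising enzyme of hepatocytes near the central vein, was 47.4 and 18.4, Cyp1a2 9.96 and 3.54 and Cyp2a5 2.60 and -0.00610. Cyp3a11, the main drug-oxidising enzyme of mouse liver, gave 2.18 at 0, -0.0717 at 3, 1.61 at 8, 1.53 at 16, 2.69 at 24, 18.7 at 36, 1.86 at 48 and 4.48 at 168 h. The change was 2.85, and the 36 h value exceeded the next library, 168 h, by 1.95 on the log2 scale. Among genes with a signal of 5 or more in any library only AC158618.5 had a larger gap of this kind, 2.66. The span of that entry overlaps that of Pcnt, so their signals may be shared. A C/EBPbeta region was centred at -34 bp from the Cyp3a11 start at 0 h and at -36 bp at 36 h, and the 36 h Egr1 list had a peak over the start. Cyp2c70 (-0.139 and 2.29) and Cyp2c29 (0.0622 and 2.19) were also higher, and both passed the limit at 36 h alone. Genes of the Cyp2c, Cyp2d and Cyp3a families are close copies in clusters, so their signals may be shared.

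Among 27 genes of conjugation and transport 4 were higher and 2 lower, with the glutathione transferase genes Gstm3 at -0.397 and 2.21 and Gstt2 at 9.67 and 1.43. Ugt2b34, Ugt2b1 and Ugt2b35, neighbours on chromosome 5, were all higher. In glucose metabolism 7 of 27 were lower and 3 higher, against 18.9% and 19.1% of all described genes. Pklr, pyruvate kinase of liver, was 5.69 and 0.702, and Ppp1r3c, which targets a phosphatase to glycogen, 7.60 and 0.801, the lowest of its 8 libraries. Pck1, which encodes the rate-limiting enzyme of gluconeogenesis and had the second highest signal of the 36 h library, was 216 and 266, and G6pc 10.9 and 22.1.

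Of 24 described apolipoprotein and lipoprotein genes 6 were lower, near the 18.9% of all described genes, and 0 were higher. Apoe gave 156 at 0, 4.50 at 3, 38.4 at 8, 52.6 at 16, 58.9 at 24, 47.9 at 36, 39.3 at 48 and 51.6 at 168 h, a change of -1.69, and its neighbours Apoc1 and Apoc4 on chromosome 7 were lower too. Apoa2 was 82.9 and 26.4, while Apoa1, the highest gene of the 0 h library at 305, was 249. Of plasma carrier genes 3 of 22 were higher and 4 lower. Alb, which encodes albumin, gave 38.5 at 0, 16.9 at 3, 56.2 at 8, 35.5 at 16, 78.3 at 24, 92.6 at 36, 77.3 at 48 and 90.8 at 168 h, a change of 1.26, and Rbp4, the retinol carrier, was 41.5 and 17.2. Serpina1e (0.683 and 7.34) and Serpina1b (4.17 and 1.58) went opposite ways, but they are near-identical copies.

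Genes of amino acid breakdown and the urea cycle were mostly near their 0 h level, with 8 of 36 higher and 1 lower and a median change of 0.13. Cps1, which commits ammonia to the urea cycle, was 2.07 and 10.5, a change of 2.10, and Oat, ornithine aminotransferase, 0.982 and 6.99. Tat, tyrosine aminotransferase, was 55.2 and 99.3. In methyl group metabolism 7 of 16 were higher and 1 lower, against 19.1% and 18.9% of all described genes. The median change was 0.91, or 0 over all 25 measured. Nnmt, which spends methyl groups on nicotinamide, was -0.126 and 5.78, Bhmt, which remakes methionine, 2.36 and 11.2, and Gamt, which makes creatine, 24.0 and 9.19. For iron and haem, 4 of 17 were higher and 3 lower. Alas1, the rate-limiting enzyme of haem synthesis, was 20.8 and 78.5, and Ftl1, ferritin light chain, 106 and 36.9.

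Genes of protein synthesis leaned to higher signal at 36 h. Of 56 described ribosomal protein and elongation factor genes 20 were higher and 0 lower. Over all described genes, the measure for each group of this paragraph, 19.1% were higher and 18.9% lower. The median change of the 56 was 0.67, and 18 of them passed 0.5 at 36 h alone. Rpl13a was 1.11 and 8.11, Rps15 -0.440 and 2.33 and Eef2 3.29 and 9.46, and Rplp1 was 6.74 and 3.21. Their bodies are short and have many processed copies elsewhere in the genome. Genes of heat shock and oxidative stress were higher in 6 of 14, with 0 lower, and 3 of the 14 passed 0.5 at 36 h alone (median change 0.77, or 0.55 over all 19 measured). Hspa8, which encodes the constitutive Hsc70, gave 1.76 at 0, 7.19 at 3, 8.17 at 8, 4.83 at 16, 13.8 at 24, 15.5 at 36, 10.5 at 48 and 9.10 at 168 h, a change of 2.82, and 36 h was its highest value. Of 18 genes of the unfolded protein response 4 were lower and 1 higher. Herpud1, of the degradation pathway of the endoplasmic reticulum, was 32.0 and 9.73 and Trib3 3.56 and -0.605, against 4.72 and 19.6 for Atf4, which encodes a master regulator of amino acid stress. Genes of the cytoskeleton and extracellular matrix were higher in 8 of 17 and lower in 1 (median change 0.70, or 0.24 over all 26 measured, with 5 of the 17 above 0.5 at 36 h alone), with the tubulin gene Tubb5 at 0.934 and 5.95 and cytoplasmic actin Actg1 at 4.34 and 12.5.

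Most other groups had medians closer to 0, and their counts stand against 19.1% higher and 18.9% lower over all described genes. Of 13 described sex-biased genes 4 were higher and 2 lower (median change 0.19), of 11 pericentral and Wnt target genes 4 and 4 (0.04), of 13 periportal genes 1 and 1 (0.15), of 9 genes of the growth hormone axis 2 and 1 (-0.15) and of 10 genes of ribosome biogenesis 2 and 2 (0.35). Proteasome genes were higher in 5 of 15 and lower in 1 (0.53), and respiratory chain genes higher in 3 of 20 and lower in 1 (0.41). Fh1, fumarase of the citric acid cycle, was 0.376 and 4.005, and Nop56, of the snoRNA particles that modify ribosomal RNA, 1.19 and 3.67.

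**Figure D4:**
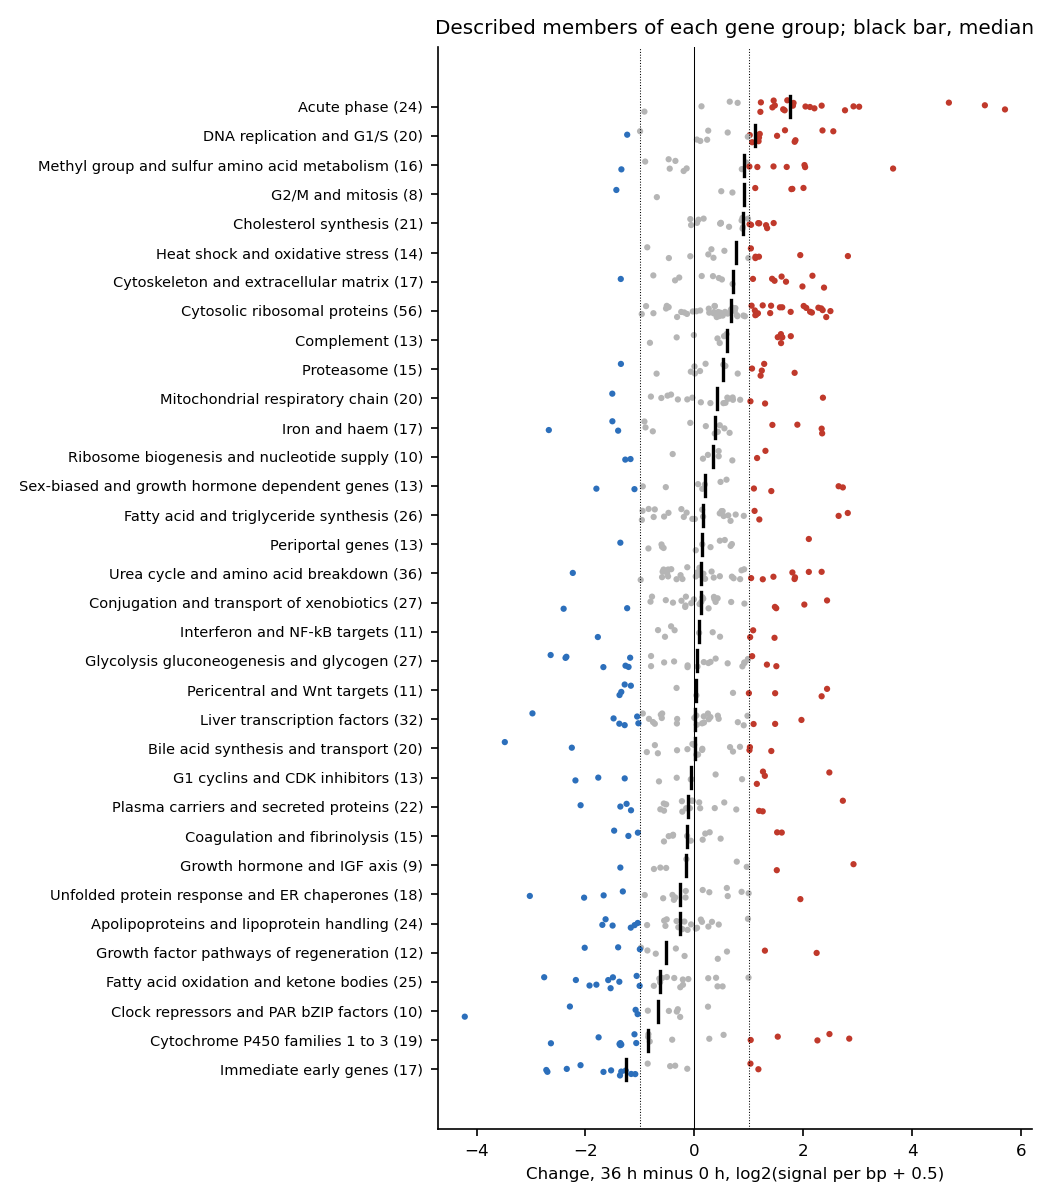
Change at 36 h from 0 h, log2(signal per bp + 0.5), on the x axis, for the described members (number in brackets) of 34 gene groups on the y axis, ordered by median (black bar). Points are genes, in red at 1 or more and blue at -1 or less. Acute phase genes (median 1.76) lie farthest to the right and immediate early genes (median -1.26) farthest to the left, and most groups hold members on both sides of 0.

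A few genes stood out without belonging to a group. The highest signal of the 36 h library was at a 713 bp body on chromosome 11 whose entry has no match in the RefSeq table and which gave 40.1 at 0, 574 at 3, 211 at 8, 113 at 16, 133 at 24, 349 at 36, 121 at 48 and 123 at 168 h. Ypel4 was 2.94 and 13.2, Tssk6, a testis kinase gene, 0.618 and 13.8, and H2-Q10, a secreted MHC class I gene, 5.14 and 10.3, and all 3 had their highest value at 36 h. Among the 15 largest in the upward direction, Ocstamp (4833422F24Rik), Tssk5, Wdr38, Naxe (Apoa1bp), Prtn3 and Endog were all below 0 at 0 h and between 5.33 and 7.97 at 36 h. Endog overlaps D2Wsu81e and Wdr38 overlaps Rpl35, and Prtn3 encodes a protease of neutrophil granules. The longest run of neighbouring measured genes that were all higher held 5, on chromosome 9 at 20673141 to 20757317 (mm9): A230050P20Rik, Angptl6, Ppan, Eif3g and Dnmt1. Dnmt1, the maintenance DNA methyltransferase that works at the replication fork, was -0.361 at 0 h and 0.685 at 36 h and below 0 in every other library. A run of 4 histone genes lay on chromosome 13, and another 4 on chromosome 15 (AC116520.14, Pycrl, Tsta3, Zfp623).

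The liver holds cells other than hepatocytes, and in whole tissue fewer cells of a type and less Pol II per cell cannot be told apart. The 12 hepatocyte markers were all described, and their signal summed to 528 at 0 h and 540 at 36 h, with Alb, Fgb and Cps1 higher and Cyp2e1 and Serpina1b lower. Markers of other cells were low. The 10 measured neutrophil markers summed to 7.82 and 1.04, with Camp at 5.86 and 1.04, Ela2 at 1.78 and -0.372, and 7 and 9 of the 10 at or below 0. Prtn3, a neutrophil gene outside this list, lay the other way, at -1.30 and 5.41. The 13 Kupffer cell and macrophage markers summed to 7.64 and 4.97, with C1qa at 2.42 and 0.713, Cd68 at 2.001 and 0.824, but C1qc at -0.181 and 1.14 (change 1.71) and Csf1r at 0.220 and 0.546, and 7 and 3 of 13 at or below 0. Lymphocyte markers (11 measured) summed to 1.72 and 0.423, cholangiocyte markers (8) to 1.89 and 1.37, endothelial markers (12) to 5.06 and 4.98, stellate cell and fibroblast markers (12) to 3.36 and 2.94, and erythroid markers (8) to 1.18 and 2.29. At 0 h the neutrophil, macrophage and immediate early sums (7.82, 7.64 and 409) were all larger than at 36 h (1.04, 4.97 and 146), but at 3 h the first was 1.53, the second 5.002 and the third 786.

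Binding of C/EBPalpha, C/EBPbeta and Egr1 near the starts gave a readout that the choice of genes did not use. With 27061 top-scoring regions of each C/EBP list, 42.1% of the 894 higher genes (95% Wilson interval 38.9 to 45.3) had a C/EBPbeta region of 36 h within 1 kb of the start, against 33.9% of the 887 lower genes (30.9 to 37.1) and 41.9% of all 4692. For C/EBPalpha of 36 h the shares were 30.5% of higher, 25.1% of lower and 31.6% of all genes. The regions of 0 h gave 22.5% and 19.4% with C/EBPbeta and 23.6% and 21.4% with C/EBPalpha, for higher and lower genes, against 22.5% and 25.4% of all genes. Higher genes were thus within 2 percentage points of all genes in these lists, and lower genes were below both. Such intervals cover counting error only, and genes are not replicates.

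That order turned among genes with a signal of 5 or more, where 62.5% of 152 lower genes (54.6 to 69.8) and 49.6% of 119 higher genes (40.8 to 58.4) had a C/EBPbeta region of 36 h, against 54.2% of all 738. The intervals of the high-signal genes overlap. Within 10 kb the turn was absent for C/EBPbeta of 36 h, with a region near 88.2% of the lower and 91.6% of the higher genes. For C/EBPalpha of 36 h these shares were 82.2% and 89.1%, and for C/EBPalpha of 0 h 77.6% and 82.4%. For C/EBPbeta of 0 h they were 78.9% and 78.2%, so in that list the lower genes were still slightly ahead. Egr1 peaks of 36 h, 9895 in all, lay within 1 kb of 4.59% of higher genes (41 of 894), 2.71% of lower genes (24 of 887) and 3.69% of all. With a signal of 5 or more these were 13.4% (16 of 119, interval 8.45 to 20.7), 4.61% (7 of 152, 2.25 to 9.20) and 5.83% of 738. Of the 20 described replication genes, 5 had a C/EBPbeta region of 0 h and 10 one of 36 h within 1 kb in the full lists, against 34.0% and 45.3% of all described genes, and 0 had an Egr1 peak. The full lists hold 54574 and 31658 regions.

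**Figure D5:**
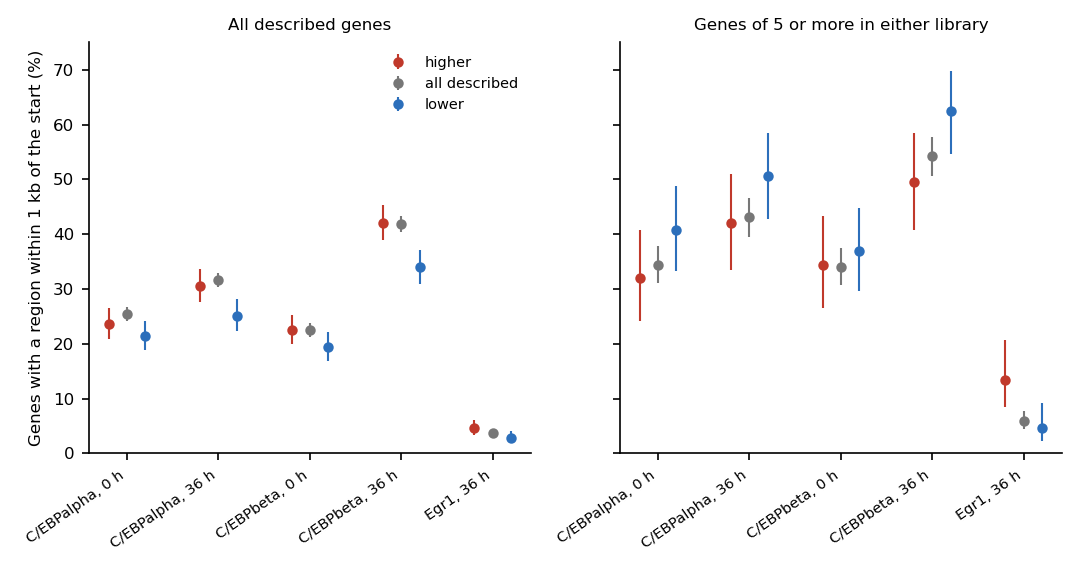
Percent of genes (y axis) with a C/EBPalpha or C/EBPbeta region or an Egr1 peak within 1 kb of the start, by region list (x axis), for higher (red), all described (grey) and lower (blue) genes, on the left for all described genes and on the right for those with a signal of 5 or more. Bars are 95% Wilson intervals. Lower genes have the smallest share for each list on the left, while on the right they have the largest for the 4 C/EBP lists and the smallest for Egr1.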

How the data were processed

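Pol II ChIP-seq of mouse liver was deposited by the authors as a signed score per gene entry (mm9), with no read counts, for 8 times; C/EBPalpha and C/EBPbeta regions and Egr1 peaks also carry deposited scores. How the score was scaled and whether a control was subtracted are not stated in the labels. Bowtie 0.12.7 and MACS 1.4.1 are named, without a role, in the submitters' processing notes. Intervals were taken to begin 500 bp past the gene start, from their lengths beside RefSeq's. The score was divided by the interval length; 10871 of 31804 entries were not used (interval under 500 bp, reversed in 6603, or a repeated name). Each library was scaled by the median ratio over 1472 genes above 0.5 in all 8. The change was log2(signal + 0.5), 36 h minus 0 h, and 1 or more was called.

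With 1 library per time there was no test, and depth is unknown. Members and the 43 lists (35 gene groups and 8 of cell type markers, 1074 genes, 1041 measured, 626 described, 65 in 2 or more lists) were chosen with earlier results of these data known. Named were the 15 largest changes in each direction with a signal of 5 or more, the 2 largest in each direction per list with a signal of 2 or more, the 10 highest signals at each time, the 10 largest gaps above and below the other libraries, the clock lists, the genes of the mapped factors and the longest runs. Other members named were chosen after their values were seen. Some genes that this rule names are not reported here. Region lists of the C/EBP factors were cut to the 27061 best-scoring, the length of the shortest. Names were matched to RefSeq (15380 current, 2614 older, 2939 unmatched). ChIP-seq gives no strand, so overlapping genes cannot be told apart. Scripts (Python 3.11.15, pandas 2.3.3, numpy 2.4.6) were tested on simulated data.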

Additional observations from a re-analysis of the deposited data

How the results depend on the processing

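Counts of higher and lower genes stayed within 1.5 times of 894 and 887 except with a pseudocount of 2 (205 and 204) and with the limit on signal at 2 (324 and 359). Without rescaling they were 1051 and 1020, with scaling over genes above 0.5 at 0 h and 36 h alone 1097 and 957, with scaling over genes above 5 in all libraries 998 and 823, and with a pseudocount of 0.05 they were 1229 and 1209. No change of the named genes reversed: of 1788 values over these alternatives 1681 lay within 1.5 times, 42 moved with a pseudocount of 0.05 and 65 with 2. Of 427 list medians 21 moved and 0 of those beyond 1 changed sign.

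Within 10 kb instead of 1 kb, the shares of higher, lower and all described genes were 57.4%, 50.1% and 60.1% for C/EBPalpha at 0 h, 63.8%, 54.5% and 65.6% at 36 h, 56.6%, 49.7% and 58.5% for C/EBPbeta at 0 h, 74.3%, 61.9% and 73.0% at 36 h, and 18.9%, 14.7% and 18.3% for Egr1. With the full lists at 1 kb, C/EBPalpha at 0 h gave 27.0% of all genes, C/EBPbeta at 0 h 33.3%, 28.9% and 34.0%, and C/EBPbeta at 36 h 45.4% of higher and 45.3% of all. No paired analysis was possible because each time has 1 Pol II library, and for the same reason no library could be left out. Signals near 0.5 have many counterparts below -0.5, and no depth is known.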
